A study of Homo sapiens with 32 samples.

Results

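The comparison described here asked what palbociclib (PB), an inhibitor of the cyclin-dependent kinases CDK4 and CDK6, added to the acetylation of histone H3 lysine 27 (H3K27ac) when cells were already in retinoic acid (RA). The cells were SK-N-BE(2)C, a human neuroblastoma line, grown in serum-containing medium and treated for 5 days with vehicle (DMSO), RA, PB at 1 µM, or PB and RA together (PB+RA). Each group had 4 ChIP-seq libraries, with 16 input libraries beside the 16 ChIP libraries, and the replicates were separate passages of this single line. The 4 PB+RA and the 4 RA libraries, 8 of the 32 in the series, carry the comparison, and the DMSO and PB libraries enter only where palbociclib without RA is set beside it. A single line limits the groups as a model of the tumour, and fewer cells in a state cannot be told apart from less mark per cell in bulk chromatin.

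H3K27ac is laid down by the acetyltransferases p300 and CBP at active promoters and enhancers. Palbociclib keeps the retinoblastoma protein unphosphorylated, so that E2F factors are held off and cells do not leave G1. Retinoic acid acts through RAR and RXR receptors bound to DNA, induces its own breakdown by CYP26 enzymes, and drives sympathetic neuroblasts towards neurons. Adrenergic neuroblastoma cells are held in an immature state by a circuit of transcription factors that includes HAND2, GATA3 and ISL1.

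The members were all 92108 regions of the deposited DiffBind tables, and each had 1 concentration per treatment, the log2 of its normalised read count averaged over the 4 libraries. The PB+RA concentration minus the RA concentration gave the size of the difference, with no spread between libraries of its own. The spread came from the peak lists of the 8 libraries, as the mean fold enrichment of a library's peaks over the bases of the region (0 where the library had no peak), and the 60759 regions where 4 or more of the 8 libraries had a peak were tested with limma. A region was called higher or lower when the Benjamini-Hochberg adjusted p was under 0.05 and the concentration difference was beyond 0.5 (log2) in the same direction. Over the regions tested, the log2 enrichment difference and the concentration difference had a correlation of 0.92, which is a description of measures that share reads.

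The 10 adrenergic markers (among them HAND2, GATA3, TH and DBH) had a peak at the start site in all 8 libraries, and their summed enrichment was 86.8 to 111 in RA and 105 to 150 in PB+RA libraries. Of the 8 mesenchymal markers, 6 to 7 had a start-site peak in RA and 5 to 6 in PB+RA libraries, with sums of 48.4 to 55.2 and 33.8 to 56.0, and PRRX1 had none in any. Schwann cell markers summed to 8.34 to 13.3 and 6.71 to 11.3, with a peak at 3 to 4 and at 2 to 5 of 5 markers. Immune markers summed to 3.4 to 5.17 and 1.79 to 4.25, with no peak at CD3E, ITGAM or LYZ and a peak at CD14 in all 8 libraries (2.48 to 3.81 in RA, 0.824 to 2.50 in PB+RA), and endothelial markers to at most 2.13, with no peak at PECAM1, KDR, TEK, ERG or VWF. The adrenergic markers thus carried the mark in every library, and of the immune and endothelial markers some had no peak in any.

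To show the promoters and distal elements on which the results turn, the stretches below are from GRCh37, the build of the deposited coordinates (hg19), with start sites from GENCODE. MKI67 (chr10:129924658-129924957, minus strand) and GINS2 (chr16:85722531-85722830, minus strand) run from 270 bases before to 30 bases after the canonical start site and belong to genes whose start-site H3K27ac was lower with PB+RA. The distal pair, in which H3K27ac was higher with PB+RA, are the central 300 bases of a region in an intron of RBMS3 (chr3:28822595-28822894, plus strand) and of an intergenic region whose nearest start site is that of CTSL (chr9:90399565-90399864, plus strand). Capitals mark TTTGAA and CCAAT in MKI67, TTTCCCGC or TTTGGCGC (E2F) in GINS2, and in the distal pair AGATAA, known for GATA factors, or CATCTG, an E-box, each on either strand.
MKI67: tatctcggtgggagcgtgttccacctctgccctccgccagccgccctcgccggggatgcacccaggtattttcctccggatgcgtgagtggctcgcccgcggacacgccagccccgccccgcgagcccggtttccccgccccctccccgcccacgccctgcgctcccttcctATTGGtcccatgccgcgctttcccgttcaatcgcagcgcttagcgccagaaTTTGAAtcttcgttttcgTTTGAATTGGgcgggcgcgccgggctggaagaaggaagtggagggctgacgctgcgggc
GINS2: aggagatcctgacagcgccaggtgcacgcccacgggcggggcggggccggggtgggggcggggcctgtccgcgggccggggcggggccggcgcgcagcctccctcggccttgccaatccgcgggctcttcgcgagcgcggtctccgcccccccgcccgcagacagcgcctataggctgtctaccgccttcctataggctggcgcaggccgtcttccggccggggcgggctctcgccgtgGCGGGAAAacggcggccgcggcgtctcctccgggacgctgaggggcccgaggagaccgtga
RBMS3 intron: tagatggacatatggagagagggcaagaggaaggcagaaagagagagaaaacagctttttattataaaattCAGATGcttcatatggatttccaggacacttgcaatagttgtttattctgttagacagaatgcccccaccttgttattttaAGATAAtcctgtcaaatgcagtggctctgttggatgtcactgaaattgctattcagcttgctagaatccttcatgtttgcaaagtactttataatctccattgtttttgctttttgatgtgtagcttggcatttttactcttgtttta
CTSL distal: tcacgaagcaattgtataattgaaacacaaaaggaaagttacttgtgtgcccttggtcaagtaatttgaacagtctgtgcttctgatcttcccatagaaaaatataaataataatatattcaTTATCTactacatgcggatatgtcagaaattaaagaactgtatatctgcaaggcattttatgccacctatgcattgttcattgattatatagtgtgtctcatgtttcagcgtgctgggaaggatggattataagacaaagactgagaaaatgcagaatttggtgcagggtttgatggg

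Adding PB to RA was accompanied by higher H3K27ac at many AT-rich regions away from start sites and lower H3K27ac at many GC-rich regions, promoters among them. Of the 60759 regions tested, 6614 (10.9%) were called higher and 4809 (7.91%) lower. Called higher regions had a median concentration difference of 1.01 and called lower regions one of -0.93, and the extremes were 3.67 and -3.11. The adjusted p alone was under 0.05 at 7041 higher and 5557 lower regions. Leaving out 1 library changed these counts by more than 1.5 times for PB+RA replicate 1 (2864 higher, 2621 lower), PB+RA replicate 2 (3330 and 2857), PB+RA replicate 3 (3700 higher), RA replicate 2 (3039 lower) and RA replicate 3 (3091 lower).

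The peak lists differed in base composition more clearly than in number. Peak numbers per library were 94103, 104392, 96805 and 87210 in RA and 79324, 78873, 99155 and 98819 in PB+RA, and the groups overlapped (95628 ± 7104 against 89043 ± 11485, SD, n = 4 each, two-sided exact permutation test, p = 0.314). Bases under peaks came to 145 ± 7.55 Mb in RA and 129 ± 16.1 Mb in PB+RA (exact p = 0.0857), and the median enrichment of a peak to 3.26 ± 0.0787 and 3.4 ± 0.165 (exact p = 0.229). The median GC content of regions with a peak was 47.8, 48.1, 48.6 and 48.1% in RA and 45.3, 45.2, 46.0 and 46.3% in PB+RA libraries, so that the groups did not overlap. The difference of -2.44 percentage points had an exact p of 0.0286, the smallest that 4 against 4 libraries allow, and a Benjamini-Hochberg adjusted p of 0.114 over the 4 measures.

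**Figure D1:**
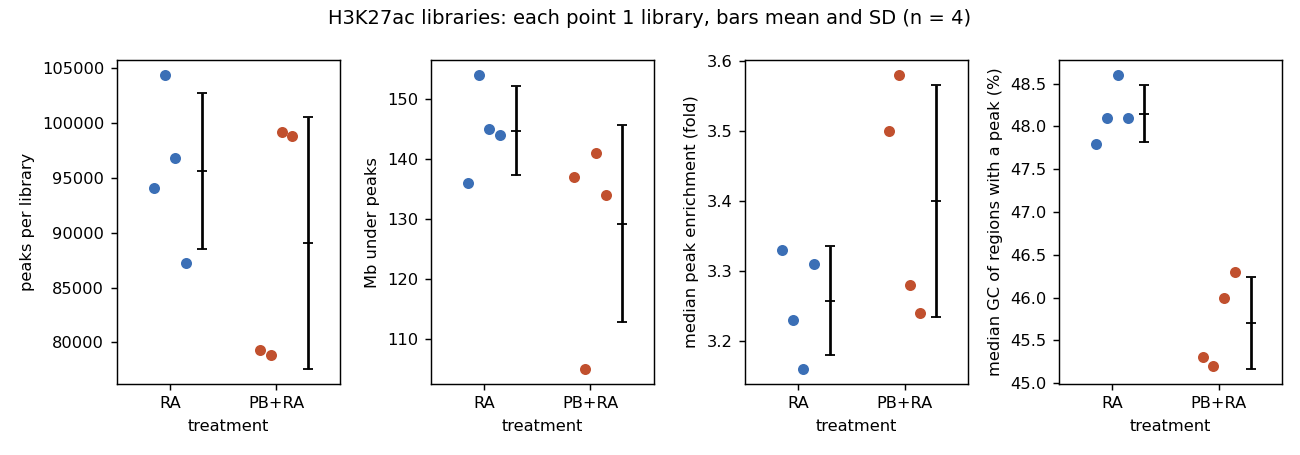
Peaks per library, Mb under peaks, median fold enrichment of peaks and median GC content (%) of regions with a peak, for the 4 RA (blue) and 4 PB+RA (red) libraries. Points are libraries and bars give the mean and SD; axes do not start at 0, and only the GC panel shows no overlap between groups, at 47.8 to 48.6% against 45.2 to 46.3%.

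Base composition ran through the region calls as well. Regions were put into 10 classes by GC content. In the class of lowest GC, under 36.8%, 24.8% of regions tested were called higher and 2.79% lower. In the class of highest GC, from 59.3%, 0.303% were called higher and 22.2% lower. The median GC content was 40.2% in called higher, 54.7% in called lower and 46.6% in all regions tested. With each region's value centred on its GC class before the fit, 4824 regions were called higher and 3552 lower, of which 4159 and 2596 were among the calls without centring. What part fragment composition in the libraries had in these differences was not tested.

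Called higher regions lay away from promoters. A protein-coding start site was within 3 kb of 11.0% of called higher regions, of 34% of called lower regions and of 27.5% of all regions tested. With GC centring the shares of called regions were 19.2% and 20.3%, so the difference between the directions was not present on that scale. Introns held 36.4% and sequence outside genes 42.1% of called higher regions, against 29.7% and 31.9% of all tested. Of 14024 genes with a tested region nearest to them, 2813 (20.1%) had at least 1 called higher and 2696 (19.2%) at least 1 called lower region.

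Letters of transcription factor motifs were unequally frequent in the central 300 bases. AGATAA, bound by GATA factors, was in 30.9% of called higher, 10.5% of called lower and 18.8% of all regions tested. A pair of TAAT sites facing each other over 3 bases, of the kind bound by paired homeodomain factors, was in 3.54%, 0.582% and 1.62%. TGANTCA (AP-1) was in 15.4%, 8.36% and 11.7%, and CATCTG, an E-box, in 22.6%, 21.2% and 21.5%. GGGCGG, bound by SP and KLF factors, went the other way with 4.73%, 23.9% and 16%, as did CAGCTG with 14.7%, 20.7% and 17.5%. These letters differ in GC content as the called regions do, so the shares describe composition and motif together, and a match is not a bound site.

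At some regions occupancy itself changed. A peak was present in all 4 PB+RA and in no RA library at 1625 of the 92108 regions (1.76%), and in all 4 RA and no PB+RA library at 770 (0.836%). These regions pass the filter of 4 libraries through 1 group only, so their calls are a description. Of the former, 1481 are among the 6614 called higher regions, and of the latter, 682 are among the 4809 called lower. Both enter the counts and shares given for called regions. The median concentration difference was 1.16 at the former and -1.09 at the latter, and 4.0% and 16.2% lay within 3 kb of a start site. The latter count was 1208 to 1434 without RA replicate 1, 3 or 4 or PB+RA replicate 3 or 4. Leaving out a library loosens the rule, so such a count cannot fall. The largest difference of the former kind was in an intron of EXOC6B, with enrichments of 4.65, 3.43, 2.21 and 3.14 in PB+RA libraries and a concentration of 5.55 against 1.88 in RA. Regions nearest to CTSL (3.34), ZNF692 (3.06), SETMAR (2.96, in an intron of SUMF1) and TBC1D19 (2.80, intron) followed by concentration difference. Of the latter kind, a region 3410 bases from a WT1 start site had enrichments of 3.0, 3.70, 1.69 and 1.12 in RA libraries and a difference of -3.11. The others were in an intron of DLGAP1 (-3.05), near TGFBI (-2.80), at the FOXD2 start site (-2.77) and near FAM76B (-2.52).

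At most called regions the difference made by PB without RA had the same sign. PB minus DMSO used none of the 8 libraries, but was normalised in the same tables. It was above 0 at 90.9% (95% Wilson interval 90.2 to 91.6) of called higher regions and below 0 at 87.6% (86.7 to 88.5) of called lower ones, against 46.0% and 54.0% of all regions tested. The intervals cover counting error only. Over the regions tested, the PB minus DMSO and PB+RA minus RA differences had a Pearson correlation of 0.64, of 0.75 within 3 kb of a start site, of 0.60 beyond it, and of 0.52 after centring both on GC classes. The median PB minus DMSO difference went from 0.54 in the lowest GC class to -0.83 in the highest, and the median PB+RA minus RA difference from 0.35 to -0.59.

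**Figure D2:**
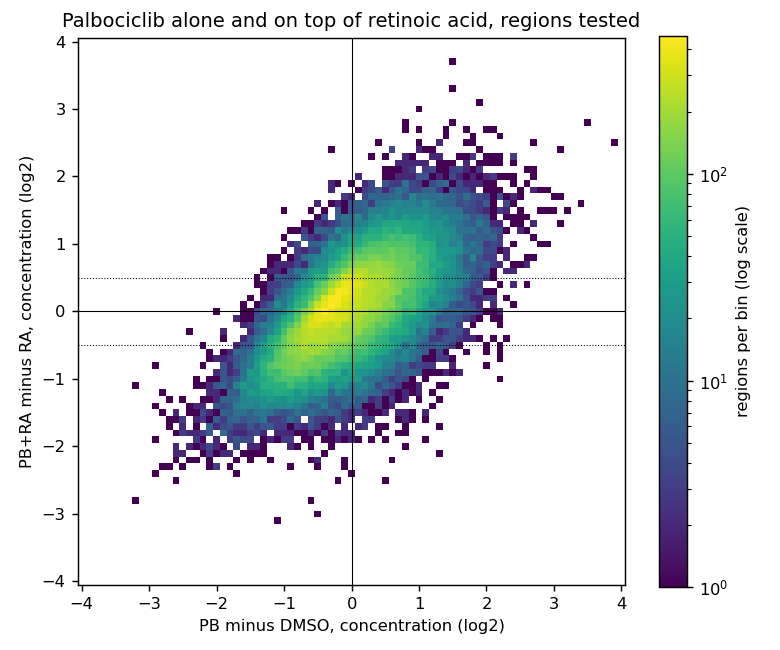
Concentration difference PB minus DMSO (x, log2) against PB+RA minus RA (y, log2) for the 60759 regions tested, as counts of regions per bin of 0.1 on a log colour scale; dotted lines mark the 0.5 used for calls. The cloud runs along the diagonal, with a Pearson correlation of 0.64.

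Cell cycle genes had lower start-site H3K27ac in larger shares than the background. Without GC centring no start-site region on their lists was called higher, beside 3.47% of all genes. Every gene with a region over or within 3 kb of a start site was given its nearest region, and at the 13960 genes whose start-site region was tested, 484 (3.47%) were called higher and 1171 (8.39%) lower, with a median concentration difference of 0.0147. With GC centring the split turned to 827 higher and 471 lower, and the median of all genes went to 0.12. Of 41 E2F targets and replication genes tested, 0 were higher and 13 lower, with a median of -0.36. Of 30 mitosis genes, 0 were higher and 12 lower (median -0.42), and of 19 regulators of G1, 0 were higher and 6 lower (median -0.28). With GC centring, 10 of the E2F and replication genes, 12 of the mitosis genes and 5 of the G1 regulators were called lower, and 2 G1 regulators were called higher. At an unadjusted p under 0.05 without centring, 1, 0 and 0 genes of the 3 lists were higher and 24, 14 and 10 lower. The same threshold gave 1230 higher and 2893 lower of all 13960 genes. Counting any region nearest to the gene, 3 of 39, 5 of 29 and 3 of 19 genes had at least 1 higher region, beside 20.1% of all genes. At least 1 lower region was found for 15, 14 and 7 of them, beside 19.2%.

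E2F7, an atypical E2F that represses transcription in S phase, had enrichments of 8.32, 6.21, 7.84 and 10.8 in RA and 2.12, 2.02, 2.88 and 4.94 in PB+RA libraries. The lowest RA value lay above the highest PB+RA value. The concentration difference was -1.77, and the log2 enrichment difference was -1.29 ± 0.24 (SE, limma, adjusted p = 0.00558). E2F8, its close relative, and E2F2, an activator, had concentration differences of -1.52 and -1.26, and E2F1 one of -0.51, which was not called after GC centring.

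CHAF1B, a subunit of the chaperone that puts histones on new DNA, had 7.07, 5.17, 10.1 and 9.94 in RA against 2.28, 2.32, 0.427 and 4.24 in PB+RA libraries. GINS2, part of the replicative helicase, had 2.05, 3.0, 3.65 and 3.21 against 0.733, 0.816, 0.880 and 1.25. Neither gene's groups overlapped. Concentration differences were -1.63 at CHAF1B and -1.52 at GINS2, and TYMS (-1.28) and RRM2 (-1.17), which supply nucleotides, were also called lower. MCM6, CDT1, TK1, UHRF1 and CLSPN made up the rest of the called genes, at -0.66 to -1.08.

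MKI67, which encodes the proliferation antigen Ki67, had 9.94, 10.1, 12.4 and 11.5 in RA and 4.16, 3.36, 4.11 and 5.92 in PB+RA libraries, without overlap (concentration difference -1.27, log2 enrichment difference -1.21 ± 0.17, adjusted p = 0.00264). MYBL2, a regulator of mitotic genes, BIRC5, which encodes survivin, and CDK1, the mitotic kinase, had concentration differences of -1.24, -1.19 and -1.08. In G1, CCNE1, the cyclin partner of CDK2, had 5.74, 7.04, 7.91 and 9.47 against 5.04, 5.03, 1.69 and 3.45, and its lowest RA library came close to the highest PB+RA library. Its concentration difference of -0.89 (adjusted p = 0.0245) was not called after GC centring, nor without RA replicate 3 or RA replicate 4. CDK2 (-1.23) and TFDP1 (-1.02), the E2F partner, were called lower as well. These values are of start-site regions. Of the 4 tested regions nearest to CDK1, 2 were called higher and 1 lower, and of the 6 nearest to CCNE1, 1 and 1.

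CDKN1C, the CDK inhibitor p57, went with them, with 1.65, 0.610, 3.46 and 2.19 in RA libraries and no peak in any PB+RA library (concentration difference -1.96). It passed the filter of 4 libraries through the RA group only, so its call is a description. CDKN1A, which encodes p21, had -0.28 (adjusted p = 0.160), and CCND1, a partner of CDK4 and CDK6, had 0.39 (adjusted p = 0.377), and was called higher after GC centring (adjusted p = 0.0472). MYCN, the amplified oncogene of this line, lies outside the regions of the tables, and its start-site peak had enrichments of 14.5, 18.6, 21.8 and 22.9 in RA and 23.3, 11.4, 14.7 and 16.8 in PB+RA libraries. The groups overlapped (19.5 ± 3.79 against 16.6 ± 5.01, SD, n = 4 each, exact permutation p = 0.400).

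The promoters of these genes carry the letters known for them. The E2F letters were in 20 of 41 promoters of the E2F and replication list, against 3.66% of 13918 promoters of the same 300 bases. Among the called lower genes they were in 9 of 13, and among those not called in 11 of 28. TTTGAA, the cell cycle homology region, was in 23 of 30 mitosis promoters against 9.19% of all, in 10 of 12 called lower and 13 of 18 not called. CCAAT, which often accompanies it and is bound by NF-Y, was in 23 of 30 against 36.6%, in 9 of 12 called lower and 14 of 18 not called. Over all genes, the E2F letters were in 5.24% of called lower and 3.32% of called higher promoters. The other letters went the other way. TTTGAA was in 9.45% of called lower and 13.3% of called higher promoters. CCAAT was in 29.6% of called lower promoters, below the 36.6% of all, and in a larger share of called higher ones. In the MKI67 stretch above, TTTGAA starts at -47 and -29 from the start site, and the E2F letters of GINS2 start at -31.

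**Figure D3:**
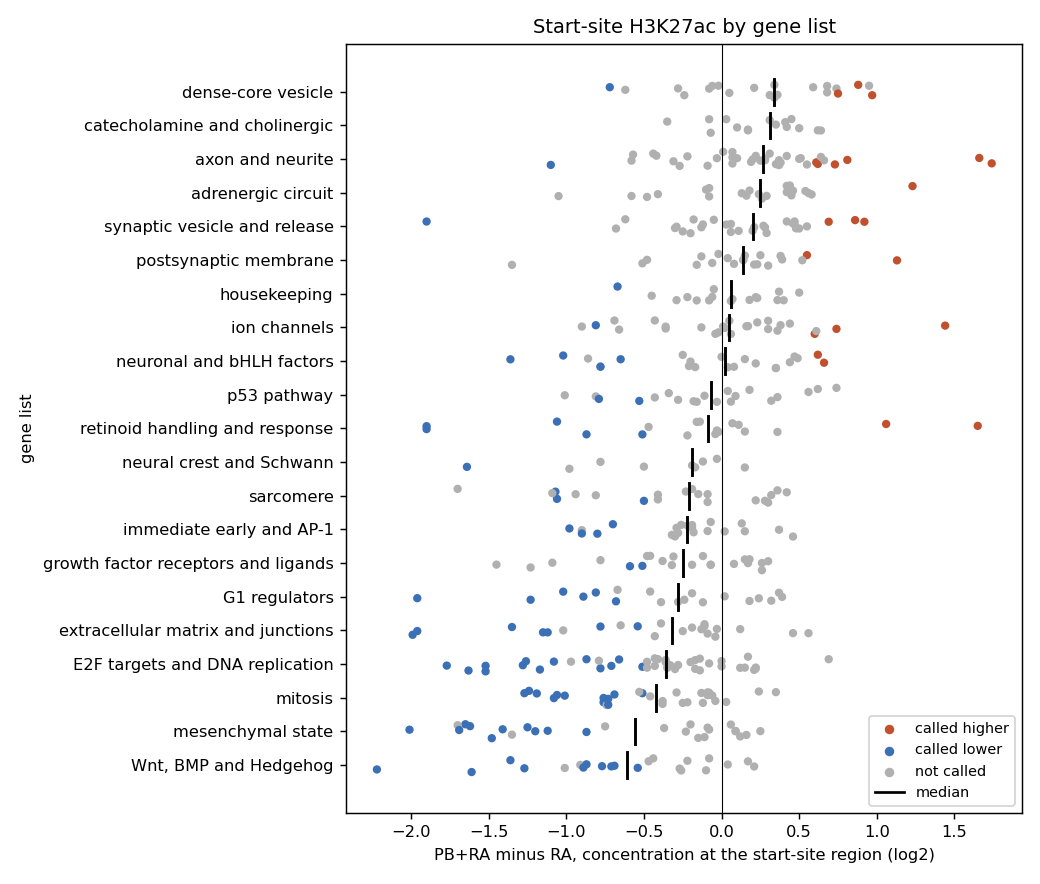
Concentration difference PB+RA minus RA (log2, x) at the start-site region of each tested gene in 21 lists (y), ordered by list median (black bar), with called higher genes in red, called lower in blue and the rest in grey. Dense-core vesicle genes have the highest median (0.34), and Wnt, BMP and Hedgehog genes the lowest (-0.61). Most lists hold no gene called higher, the E2F, mitosis, mesenchymal and Wnt lists among them.

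Neuronal genes were among those with higher start-site H3K27ac. Of 38 axon and neurite genes tested, 6 were called higher and 1 lower (median 0.27), beside 3.47% and 8.39% of all genes with a tested start-site region. Of 31 synaptic vesicle genes 3 were higher and 1 lower (median 0.20), of 21 dense-core vesicle genes 3 and 1 (median 0.34), of 26 ion channel genes 3 and 1 (median 0.05), and of 21 postsynaptic genes 2 and 0 (median 0.14). With GC centring the counts were 4 higher and 3 lower for axon genes, 4 and 1 for synaptic vesicle genes, 5 and 1 for dense-core vesicle genes, 4 and 0 for ion channel genes, and 2 and 0 for postsynaptic genes. Over all 13960 genes the centred fit called 827 higher and 471 lower. With the replicate number as a block, 5 dense-core vesicle genes and 1 postsynaptic gene were higher, and 2 genes each of the synaptic vesicle, dense-core vesicle and ion channel lists lower. Over all 13960 genes the block called 632 higher and 1504 lower. Counting any region nearest to the gene, 16 of 39 axon genes, 10 of 34 synaptic vesicle genes, 11 of 22 dense-core vesicle genes, 15 of 29 ion channel genes and 8 of 21 postsynaptic genes had at least 1 higher region, beside 20.1% of all genes. At least 1 lower region was found for 7, 8, 2, 5 and 3 genes of the same lists, beside 19.2% of all genes.

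DCX, the microtubule-binding protein doublecortin of young neurons, had 3.45, 2.97, 3.85 and 3.25 in RA and 10.9, 6.94, 10.9 and 11.1 in PB+RA libraries. STMN4, a tubulin-binding stathmin, had 3.51, 3.85, 2.98 and 3.65 against 14.1, 8.69, 16.2 and 7.35. In both genes each PB+RA library was above each RA library. The concentration difference was 1.74 at DCX (log2 enrichment difference 1.26 ± 0.15, adjusted p = 0.00207) and 1.66 at STMN4 (1.39 ± 0.18, adjusted p = 0.0024).

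STMN2, a stathmin of growing axons, had 9.97, 7.66, 8.88 and 7.67 in RA and 18, 14.3, 13.5 and 14.9 in PB+RA libraries, a concentration difference of 0.73 that was not called after GC centring. GAP43, a growth cone protein, had 5.41, 5.33, 4.76 and 5.07 against 12, 8.48, 9.74 and 7.77 (concentration difference 0.81). CHGB, a granin that packs dense-core vesicles, had 2.55, 3.19, 3.48 and 4.18 against 6.86, 5.92, 7.15 and 6.47 (0.88). Groups did not overlap at any of these. SCN2A, a sodium channel subunit (1.44), GRIA1, an AMPA receptor subunit (1.13), CADPS, which primes dense-core vesicles (0.97), and SYT4, a synaptotagmin (0.92), were called higher, though the calls at CADPS and SYT4 were lost in 7 and 5 of 8 fits that left out a library, and that at SYT4 also with GC centring. TUBB3, tubulin of neurons, had a difference of 0.10 (adjusted p = 0.713).

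Exceptions within the lists were SEMA3A, a repulsive guidance cue (-1.10), RAB3B (-1.90), IGF2 (-0.72) and CACNA1H (-0.81), all called lower. The calls at IGF2 and CACNA1H were lost with GC centring, and that at CACNA1H also in 6 of the 8 fits that left out a library. RAB3B, a small GTPase of secretory vesicles, had 2.88, 3.47, 5.42 and 5.78 in RA libraries, and among PB+RA libraries a peak in replicate 4 only (2.15). SEMA3A had a PB minus DMSO difference of 0.57, the other direction, and this contrast between the effects of PB with and without RA had an adjusted p of 0.021.

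**Figure D4:**
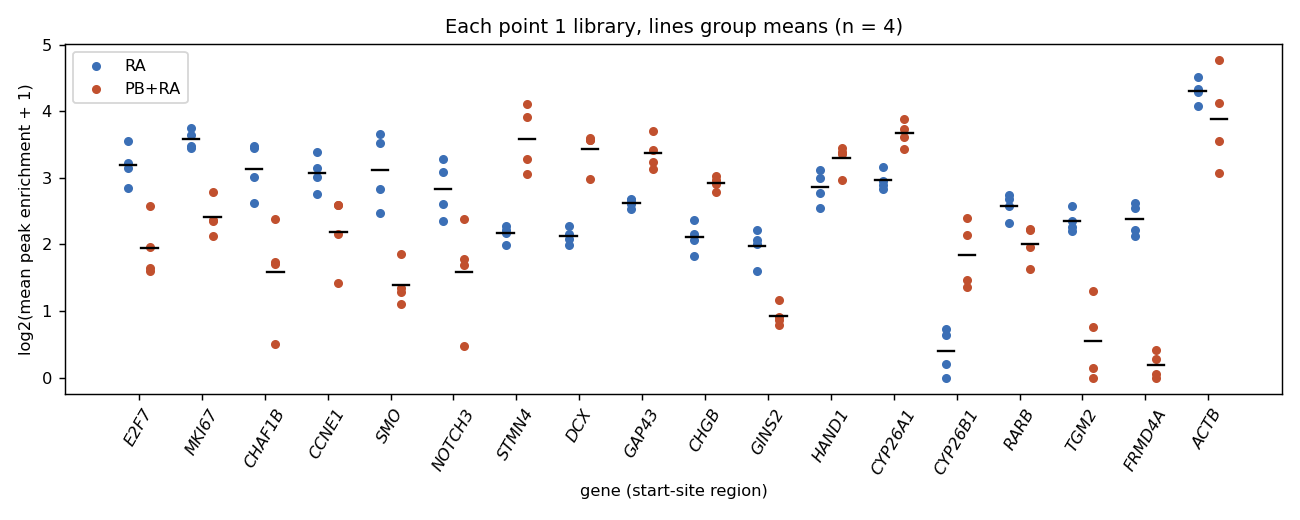
Start-site H3K27ac as log2(mean peak enrichment + 1) for 18 genes in each RA (blue) and PB+RA (red) library, before scaling between libraries; lines are group means. E2F7, MKI67, CHAF1B and SMO lie lower with PB+RA, STMN4, DCX and GAP43 higher, and the groups at ACTB overlap.

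Of 22 genes of the adrenergic circuit tested, transcription factors and the enzymes TH and DBH, 1 was called higher and 0 lower in limma's fit. Of all genes with a tested start-site region, 3.47% were called higher and 8.39% lower. The median of the list was 0.25. At an unadjusted p under 0.05, 5 were higher and 3 lower, beside 1230 and 2893 of all 13960 genes. GC centring called 3 higher and 0 lower, beside 827 and 471 of all genes. The replicate block called 1 higher and 1 lower, beside 632 and 1504. HAND1, a bHLH factor of the circuit, had 4.82, 5.84, 7.01 and 7.68 in RA and 9.52, 6.85, 9.26 and 9.89 in PB+RA libraries, which overlapped (concentration difference 0.58, adjusted p = 0.108). HAND2 (0.44), GATA3 (0.46) and ISL1 (0.16) had adjusted p values of 0.288, 0.281 and 0.917. The enzymes of noradrenaline synthesis TH (0.42) and DBH (-0.08) were not called, though TH was after GC centring (adjusted p = 0.0182), as was CHGA (0.74), the main granin of chromaffin cells, which was also called with the replicate number as a block (adjusted p = 0.0258). None of the 15 catecholamine and cholinergic genes was called in limma's fit, with 2 higher and 1 lower at an unadjusted p under 0.05, and 2 were higher with GC centring. RET, the GDNF receptor (0.15), was not called.

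**Figure D5:**
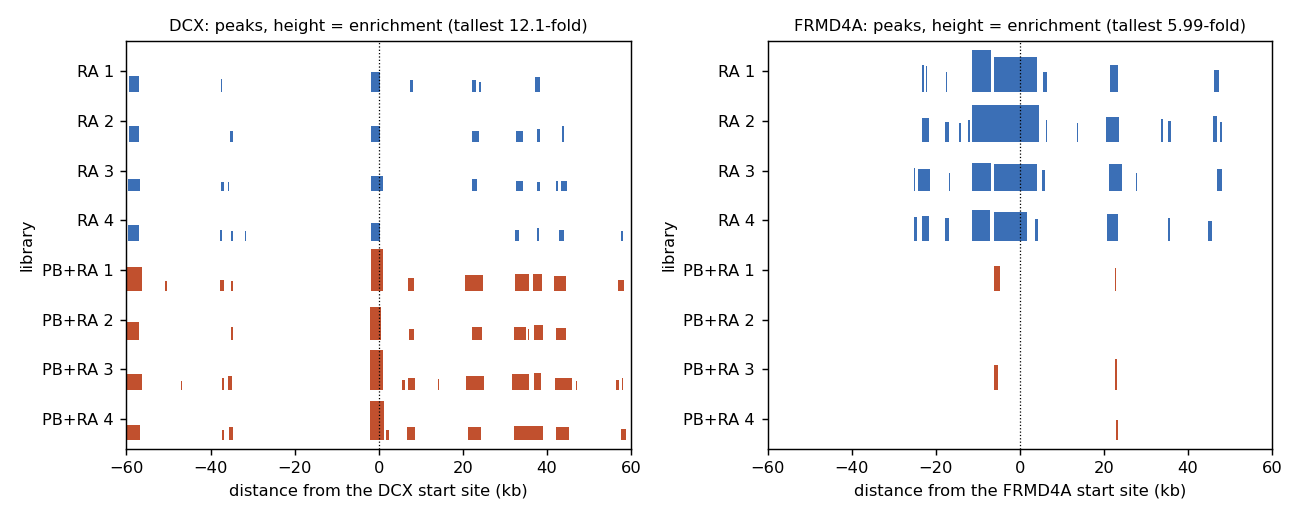
Peaks of each library within 60 kb of the start sites of DCX and FRMD4A, with distance in kb along the direction of transcription (x) and libraries in rows (y); the height of a box is the peak's fold enrichment, scaled within each panel to its tallest peak (12.1 and 5.99). Around DCX the PB+RA libraries have 17 to 26.6 kb under peaks against 8.1 to 12.4 kb in RA libraries, while around FRMD4A the RA libraries have 19.5 to 25.4 kb and the PB+RA libraries 0 to 1.8 kb.

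Retinoid genes split into both directions. CYP26A1 and CYP26B1, the enzymes that degrade retinoic acid, were called higher with PB on top of RA. CYP26A1 had 6.77, 6.13, 6.42 and 7.97 in RA and 13.8, 9.85, 12.3 and 11.3 in PB+RA libraries (concentration difference 1.06, adjusted p = 0.00688). CYP26B1 had 0, 0.158, 0.554 and 0.665 against 1.77, 1.56, 3.4 and 4.29 (1.65, adjusted p = 0.0126). In neither gene did the groups overlap. RA minus DMSO was 4.60 at CYP26A1 and 2.88 at CYP26B1. DHRS3, a retinaldehyde reductase with an RA minus DMSO difference of 4.33 at its start-site region, had a PB+RA minus RA difference of 0.07 there (adjusted p = 0.944). Of the 10 tested regions nearest to DHRS3, however, 5 were called lower and 0 higher, beside 7.91% and 10.9% of all regions tested.

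TGM2, a transglutaminase, had 3.60, 3.8, 4.09 and 4.97 in RA and 0.687, 0, 0.102 and 1.46 in PB+RA libraries, a concentration difference of -1.90 without overlap. CRABP1, which carries retinoic acid in the cytoplasm (-1.06), ALDH1A3, which makes it (-1.90), RXRA (-0.87) and the receptor RARB (-0.51) were the other lower genes, making 2 higher and 5 lower of 18, beside 3.47% and 8.39% of all genes. With GC centring 2 were higher and 3 lower, beside 827 and 471 of all 13960 genes. RARB had 5.45, 5.68, 4.02 and 4.99 in RA against 3.69, 2.09, 3.66 and 2.89, so its groups were apart, and its call stood at the edge of the 0.5 minimum. ALDH1A3 was not called after GC centring, nor in 5 of the 8 fits that left out a library. RARA, SOX4 and MEIS1 had differences of -0.03, 0.28 and 0.57, with adjusted p values of 0.560, 0.960 and 0.0693.

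Signalling and mesenchymal genes were lower in larger shares than the background of 8.39%. Of 22 Wnt, BMP and Hedgehog genes 10 were called lower and 0 higher (median -0.61), of 26 mesenchymal genes 10 and 0 (median -0.56), and of 22 matrix and junction genes 7 and 0 (median -0.32). With GC centring 8, 5 and 3 were lower, beside 471 of all 13960 genes. SMO, the Hedgehog transducer, had 4.53, 6.09, 11.6 and 10.5 in RA and 1.54, 1.43, 1.15 and 2.64 in PB+RA libraries, and GLI2, a Hedgehog transcription factor, 3.85, 3.55, 5.66 and 5.33 against 1.24, 0.969, 0.786 and 2.01. Concentration differences were -2.22 and -1.61, and the groups did not overlap at either gene.

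NOTCH3, a receptor of the mesenchymal state, had 4.11, 5.11, 8.75 and 7.48 against 2.43, 2.23, 0.392 and 4.24 (concentration difference -2.01, adjusted p = 0.0279), and its lowest RA library was just below its highest PB+RA library. TEAD4, the DNA-binding partner of YAP, had 1.63, 2.05, 3.74 and 4.52 against 0, 0, 0.588 and 1.65 (-1.62, adjusted p = 0.0228), which overlapped and was not called after GC centring, nor without RA replicate 3, RA replicate 4, PB+RA replicate 1 or PB+RA replicate 2. CCN1, a YAP target (-1.65), TGFBR2, a TGF-beta receptor (-1.69), COL6A2, a collagen chain (-1.99), and CDH11, a mesenchymal cadherin (-1.96), were called lower. Values at NOTCH3, TEAD4, SMO, GLI2, TGFBR2, COL6A2 and CDH11 were higher in RA replicates 3 and 4 than in RA replicates 1 and 2. At CCN1 they were not. The calls at NOTCH3 and TGFBR2 were lost without RA replicate 3, RA replicate 4 or PB+RA replicate 1, and that at TGFBR2 also without PB+RA replicate 3 and with GC centring.

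The other lists held fewer calls. Of 21 immediate early genes 4 were lower (ATF3, EGR3, NR4A2 and NR4A3, at -0.70 to -0.98), of 22 growth factor receptor genes 2 (FGFR1 and PDGFRB), of 20 sarcomere genes 3 (MYL9, TPM2 and DES) and of 20 p53 pathway genes 2 (GADD45A and GADD45B), with 0 higher in each, beside 8.39% of all genes lower. DES had no peak in any PB+RA library and passed the filter of 4 libraries through the RA group only, so its call is a description. With GC centring 2 immediate early genes were lower, and the growth factor receptor, sarcomere and p53 pathway lists had 0 lower. Over all 13960 genes the centred fit called 827 higher and 471 lower. The replicate block gave 4 lower growth factor receptor genes and 4 lower p53 pathway genes, and 1 higher neuronal or bHLH factor. Over all 13960 genes it called 632 higher and 1504 lower. Of 22 neuronal and bHLH factors, the RNA-binding proteins ELAVL4 (0.62) and CELF4 (0.66) were higher, and ID4, an inhibitor of bHLH factors (-1.36), EBF3 (-1.02), HES6 (-0.78) and HES1, a Notch effector (-0.65), were lower, while with GC centring 3 were higher and 0 lower. The calls at FGFR1, GADD45A, GADD45B, MYL9, TPM2, DES, CELF4 and EBF3 were each lost in at least 1 of the 8 fits that left out a library. Of 9 neural crest and Schwann genes 1 was lower (SOX8), of 4 immune genes 0, and the 1 endothelial gene tested, CLDN5, was lower, a call lost with GC centring. Among 17 housekeeping genes 1 was called, GUSB (-0.67), whose call was lost with GC centring, and the median was 0.06. ACTB had 18.5, 21.9, 15.9 and 19.2 in RA and 26.3, 16.5, 7.41 and 10.7 in PB+RA libraries, so that its groups overlapped (concentration difference -0.29, adjusted p = 0.248), and GAPDH had 0.07.

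The largest higher calls were mostly distal and the largest lower calls mostly at start sites. The 10 largest higher calls, 1 per nearest gene, ran from CTSL (3.34) to AC108868.1 (2.57) by way of ZNF692, SETMAR, TBC1D19, C10orf88, FRMD7, ASTN2, MB21D2 and IGSF11, and all had 0 enrichment in the 4 RA libraries. All 10 thus passed the filter of 4 libraries through the PB+RA group only, so their calls are a description. The ZNF692 call was lost with GC centring and in each of the 4 fits that left out an RA library. The SETMAR region, in a SUMF1 intron, had 2.84, 1.83, 3.74 and 3.09 in PB+RA libraries. Among the 10 largest lower calls, 6 covered start sites, those of FOXD2, PIEZO1, FRMD4A, MAFA, ITPR3 and CELF5, at -2.31 to -2.77. The ITPR3 call was lost with GC centring and in 4 fits that left out a library, and the CELF5 call without PB+RA replicate 1. FOXD2, a forkhead factor, had 0.659, 1.68, 2.53 and 2.77 in RA libraries and no peak with PB+RA, so its call is likewise a description.

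A small number of regions responded to PB differently with RA than without it. Over the 16 libraries, the difference of differences was called higher at 364 of 76722 regions (0.474%) and lower at 321 (0.418%). Leaving out any 1 of the 4 PB+RA libraries took these counts to between 21 and 95 higher and 24 and 90 lower, and leaving out 1 of the other 12 libraries to between 92 and 270 higher and 71 and 247 lower. Without scaling between libraries they were 90 and 41. FRMD4A, which encodes a scaffold protein of cell polarity, had 4.87, 5.19, 3.66 and 3.38 over its start-site region in RA and 0.340, 0, 0.214 and 0.0396 in PB+RA libraries. PB+RA minus RA was -2.45, RA minus DMSO 4.13 and PB minus DMSO 0.53 (adjusted p = 0.0118 for the difference of PB effects).

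An intron of RARB, in a region at chr3:25048974-25051069, had values of the same kind, with 3.60, 3.04, 2.27 and 2.13 in RA libraries and no peak in PB+RA libraries. There PB+RA minus RA was -2.03, RA minus DMSO 4.39 and PB minus DMSO 0.84 (adjusted p = 0.0167 for the difference of PB effects), and with no PB+RA peak this difference rests on presence and absence of peaks. In the other direction, a region in an FBN1 intron (FBN1 encodes fibrillin) had 0.436, 0.282, 0 and 0.165 in RA and 2.10, 2.46, 2.67 and 2.03 in PB+RA libraries, with PB+RA minus RA of 1.86 and PB minus DMSO of -0.34. The EXOC6B and RBMS3 introns were of the same kind, with PB+RA minus RA of 3.67 and 1.86 and PB minus DMSO of 1.46 and -0.33, and the EXOC6B intron had no peak in any RA library.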

How the data were processed

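H3K27ac ChIP-seq libraries of SK-N-BE(2)C cells were mapped by the authors to hg19 (Bowtie2 2.4.4, after trimming by fastp 0.12.4), and MACS2 2.2.7.1 called broad peaks per library over input, per the submitters' processing notes. Samples were grouped by their titles. The deposited peak lists give the fold enrichment, a ratio over background, and the −log10 q of each peak. The deposited DiffBind 3.4 tables, 1 for each of RA, PB and PB+RA against DMSO, give log2 concentrations per group as the authors' means, and their fold, p and FDR columns, which hold the authors' own comparisons with DMSO, were not used. DMSO concentrations were identical in the 3 tables, so levels were compared across them. Region starts equalled 0-based peak starts at all 92108 regions and were raised by 1. Read depth per library was not given in the sources used here, so peak numbers stand in for it, and no count test was possible.

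Regions were joined on sequence name, start and end. Enrichment was set on log2(value + 1), libraries were scaled to equal medians over regions with a peak in all 8, and groups were compared with limma 3.58.1 (R 4.3.3; lmFit, eBayes with trend), which was tested on simulated data. Library measures were compared with two-sided exact permutation tests (scipy 1.17.1). Genes and start sites came from GENCODE 44 on GRCh37. 92092 regions lay on its sequences, and 14878 genes had a start-site region (within 3 kb). A region was assigned to the nearest start site within 100 kb. Genes were named by rule: the 10 largest calls per direction, up to 4 calls per list (or the 2 largest differences without one), a fixed panel, up to 5 regions with peaks in 1 group only and up to 4 interaction regions per direction, and other called list members where a list is given whole. The members and the 24 lists were chosen with earlier results of these data known. A fit with the replicate number as a block is given where it changes a named call or the count of a list. In the E2F, mitosis, mesenchymal, Wnt and matrix lists it called 15, 13, 13, 12 and 8 genes lower, beside 1504 of all 13960 genes. It was run because same-numbered RA and PB+RA libraries deviated together, with correlations of 0.103 to 0.247, but 3 of 8 libraries correlated best with their own number. Between replicates 1 and 2 of 1 group and replicates 3 and 4 of the other, these correlations were all negative, at -0.272 to -0.087. Some genes and promoter sequences are not reported here.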

Additional observations from a re-analysis of the deposited data

Results flagged for a closer look

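Of 64 groups of 4 libraries examined for a value standing apart by Dixon's test, 2 had one, where about 1 in 20 is flagged by chance. At the DCX start site, PB+RA replicate 2 had an enrichment of 6.94 beside 10.9 to 11.1 in the other PB+RA libraries, still above all 4 RA libraries. At the RAB3B start site, PB+RA replicate 4 had 2.15 where the other PB+RA libraries had no peak. Any value is flagged where the other libraries of its group are at 0, so the rate of 1 in 20 does not apply there. PB+RA libraries had the same pattern at the ITPR3, MAFA and CELF5 start sites, which are not among the 2.

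At 15 of the regions named by rule, the effect of PB with RA differed from its effect without RA in limma's interaction test over 16 libraries (adjusted p of 0.0118 to 0.0498). Some of them had been named because this same test called them, so for these the result was fixed by the choice. They are HAX1, the EXOC6B, FBN1, RBMS3 and RARB introns, FRMD4A and the intergenic regions on chromosomes 9 and 12. The difference of the concentration differences was above 0 at 6. It was 2.49 near HAX1, 2.22 in the EXOC6B intron, 2.2 in the FBN1 intron, 2.19 in the RBMS3 intron, 1.96 at the region nearest to SETMAR and 1.29 near ASTN2. It was below 0 at 9, with -2.98 at the FRMD4A start site, -2.87 in the RARB intron, -2.28 near FAM76B, -2.21 near TGFBI, -2.01 near WT1, -1.67 at the SEMA3A start site and -1.35 at that of CDH11, and with -3.19 and -2.61 at intergenic regions on chromosomes 9 and 12 that have no start site within 100 kb. At 8 of the 15, among them SETMAR, EXOC6B, ASTN2, TGFBI, WT1, FAM76B and the RARB intron, 1 of the RA and PB+RA groups had no peak, so these differences rest on presence and absence of peaks.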

How the results depend on the processing

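Every call needed the deposited concentration difference in its own direction. An alternative run therefore could not call a region in the opposite direction, and the absence of such calls shows nothing about stability. Counts of called regions moved with the settings. They were 3082 higher and 2624 lower with regions that had a peak in all 8 libraries, 3113 and 1653 with peaks of a −log10 q of at least 3, 2530 and 1708 with the highest peak of a region, 3360 and 1984 with a minimum difference of 1, and 2931 lower with all 92108 regions. Leaving out 1 library gave 2864 to 5542 higher and 2621 to 4836 lower. With only replicates 1 and 2, or only replicates 3 and 4, chosen after seeing the data, limma called 0 and 0 regions higher and lower, with 9296 higher and 10164 lower at an unadjusted p under 0.05 in the former and 8661 and 6450 in the latter, and with 2 libraries a group. The replicate block gave 7508 and 5622. It lost the CELF4 and DLG2 calls, gained that of CHGA, and changed no other named call.

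Peaks with a −log10 q of at least 3 turned the difference in peak number to 2821 more with PB+RA (exact p = 0.114), and the exact p of the GC difference was 0.125 under the replicate block (-2.44 percentage points), the smallest that 4 pairs allow, and 0.0571 without any 1 library (-2.64 to -2.28), the smallest for 3 against 4. Regions with peaks in all PB+RA and no RA libraries numbered 816 with the stricter peaks, and the reverse 225, and 1279 with merged peaks. Leaving out 1 library, which can only keep or raise these counts, gave 1945 to 2370 of the former and 888 to 1434 of the latter. The difference of PB effects was called higher at 90, 153 and 670 regions without scaling, with all regions and with GC centring, and lower at 41 and 136 without scaling and with all regions. Leaving out 1 of the 16 libraries gave 21 to 270 higher and 24 to 247 lower. Of 98 named calls, 31 were lost with GC centring, 25 without PB+RA replicate 1 and 19 without RA replicate 3 or RA replicate 4. Causes were not tested.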

Other observations

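Some genes were nearest to many called regions, and those given here were picked after their values were seen. Of all regions tested, 10.9% were called higher and 7.91% lower, and 24.8% were called higher in the class of lowest GC. DLG2, a postsynaptic scaffold gene, was nearest to 68 tested regions, of which 17 were called higher and 0 lower, with a median concentration difference of 0.94 over those called. CTNNA2, the neuronal alpha-catenin, had 14 higher and 2 lower of 31, ICA1 10 and 0 of 13, and ASTN2, which encodes astrotactin, 10 and 0 of 30. EXOC6, which encodes an exocyst subunit and lies next to CYP26A1, had 9 higher and 0 lower of 15 regions (median 1.21), and CNTN1, a contactin of axons, 8 and 0 of 15. In all, 83 genes had at least 5 higher regions and 74 at least 5 lower ones. MAD1L1, a spindle checkpoint gene, had 13 lower and 0 higher of 31 regions, LIMCH1 11 and 0 of 40, SIK1, a salt-inducible kinase gene, 10 and 0 of 18, and DOCK11 8 and 0 of 8. PSD3 had both, with 12 lower and 6 higher of 34. Long genes are nearest to more regions, so counts are set beside the number tested.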
